A study of Mus musculus with 4 samples.

Results

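The genes described here are 37 genes of blood endothelial structure and identity, the cells that line blood vessels. They were taken by symbol, as every gene of a fixed list whose array probe sets carry a single gene symbol, and all 37 were measured, out of 18193 genes with such a probe set. Each gene is represented by its probe set, a group of array probes for 1 transcript region, with the highest mean over all arrays. The 37 genes have 59 such probe sets in all. The cells came from lymph nodes that drained tumours in female SCID/NOD mice, an immunodeficient strain, aged 6 to 8 weeks. In the metastatic group the tumour under the skin was made of 293-VEGF-D cells, a human embryonic kidney line that overexpresses the lymphatic growth factor VEGF-D. In the non-metastatic group it was made of 293-Apex cells, which lack that factor. When tumours measured 1600 to 2500 mm3, which took 3 to 4 weeks, the left axillary node was removed. Between 1 and 5 mice were pooled for a preparation. Metastatic nodes were used only where visibly enlarged. All cells were cultured briefly in endothelial growth medium and then selected for podoplanin with magnetic beads, a selection that keeps lymphatic endothelium and also fibroblastic reticular cells. Per the sorting labels, tumour cells and leukocytes were removed before culture in the metastatic group and not in the non-metastatic one, whereas the growth protocol, the same on all 4 samples, describes a depletion and names no group for it. By the sorting labels this step, like node enlargement and VEGF-D, cannot be told apart from metastasis. Each group had 2 preparations, called biological replicates in the titles, with 1 array each.

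Blood endothelial cells are held together by cadherin, claudin and immunoglobulin-family junction proteins and carry sialomucins and lectin-like receptors on their luminal surface. They move solutes through caveolae and diaphragms, keep blood from clotting through thrombomodulin and the protein C receptor, and set vascular tone through nitric oxide synthase. ETS-family and basic helix-loop-helix transcription factors maintain this identity. In lymph nodes these cells form arterioles, capillaries and the venules through which lymphocytes enter. Many of the genes are not exclusive to blood vessels: caveolins, aquaporin, thrombomodulin and Cd200, for example, are also made by lymphatic, mesenchymal or mesothelial cells. The values below are those of the podoplanin-selected cells as a whole. How much of any signal came from blood vessel cells was not tested.

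Most of these genes had lower signal in the metastatic preparations, with the largest differences among surface and transport genes. Of the 37 genes, 28 had a negative and 9 a positive log2 difference (metastatic minus non-metastatic; 50.1% of all genes were negative), with a median of -0.20, where the median over all 18193 genes was -0.000339. At an unadjusted p under 0.05 in limma, a linear model with a spread moderated over all probe sets, 10 of the 37 were lower, against 4.07% of all genes. They were Emcn, Cd200, Ecscr, Podxl, Aqp1, Ehd3, Cav1, Cav2, Thbd and Procr. None of the 37 was higher by that measure, against 2.63% of all genes. Both metastatic arrays lay below both non-metastatic arrays for 19 of the 37 genes (17.3% of all genes), and above them for 1, Gpihbp1 (17.2% of all genes). A difference of at least 2-fold downward was found for 5 of the 37, Emcn, Cd200, Aqp1, Ehd3 and Ecscr (0.704% of all genes), and upward for 0 (0.242%). After Benjamini-Hochberg adjustment over all 45037 probe sets, limma called 0 of the 37 genes and 0% of probe sets at 0.05, so no single gene is shown to differ. The smallest adjusted p among the 37 was 0.113, for Cd200. With 2 arrays against 2, an exact two-sided permutation test of 1 gene cannot give a p below 0.333. The 37 genes were chosen with earlier results of these data known, so the counts set beside shares of all genes are descriptions and not a test. In bulk RNA, fewer cells of a type and less RNA per cell cannot be told apart, which holds for every value below.

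**Figure D1:**
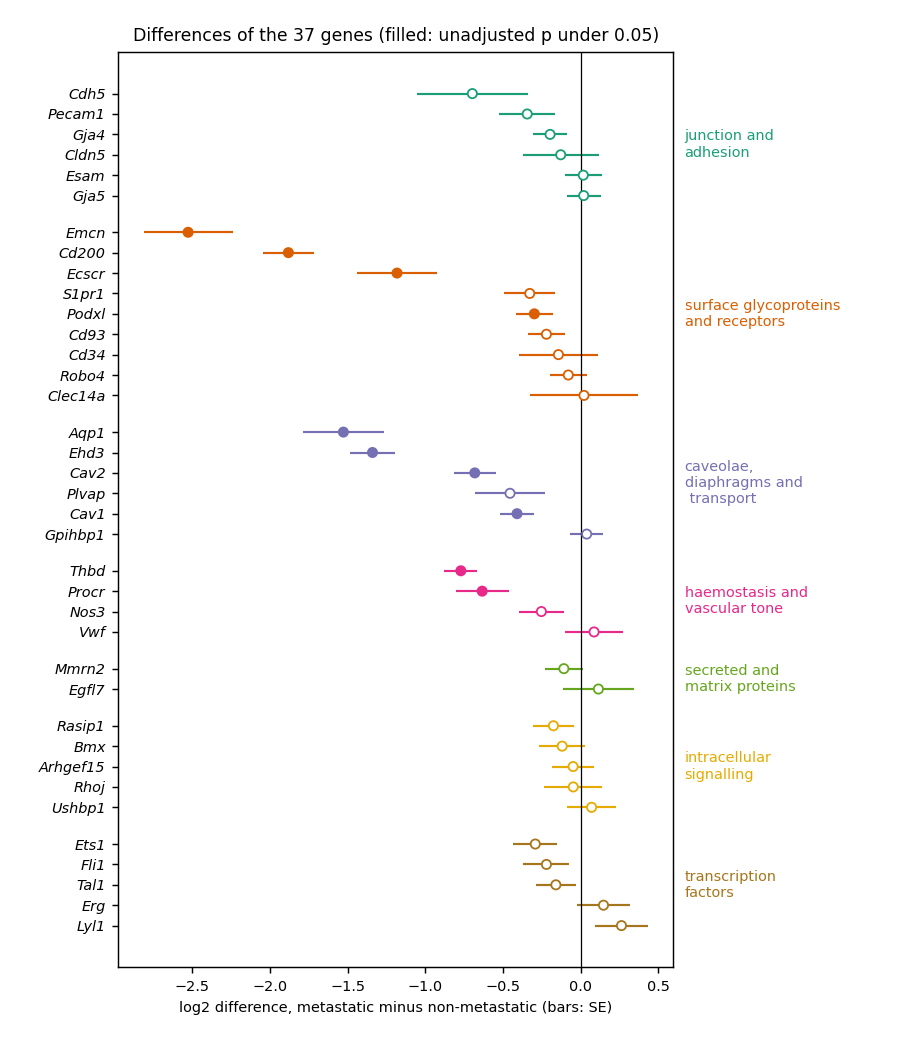
Log2 difference, metastatic minus non-metastatic, with its standard error, for each of the 37 genes, ordered by role. Filled points mark the 10 genes at an unadjusted p under 0.05, all to the left of 0, from Emcn at -2.53 to Podxl at -0.30.

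Signal on the arrays also set these genes apart from each other. A mean over the arrays above the median of all probe sets, 5.95 on the log2 scale, was found for 22 of the 37, and 9 of the 10 lower genes were among them, where 5.17% of all genes above that median were lower. Of the 15 genes at or under that median, 1, Podxl, was lower at an unadjusted p under 0.05, where 1.98% of all genes in that range were. Without detection calls, a dim probe set cannot be called absent, and levels of different probe sets are not comparable as amounts of RNA. The array values were log2 signals with deposited medians of 5.88 to 6.00 per array, and pairs of arrays correlated at 0.991 to 0.995 over all probe sets. The 2 non-metastatic arrays correlated most, at 0.9952, and the 2 metastatic arrays least, at 0.9908. Each metastatic array correlated more with the same-numbered non-metastatic array, at 0.9925 for replicate 1 and 0.9932 for replicate 2. The arrays thus did not pair off by group. The arrays' number limits the precision of every difference.

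Surface glycoproteins and receptors held the largest differences. Emcn encodes endomucin, a sialomucin of capillary and venous endothelium. Its log2 signal (probe set 1425582_a_at) was 6.50 and 5.66 on the metastatic arrays, against 8.77 and 8.45 on the non-metastatic arrays. Every metastatic value was below every non-metastatic one, although the metastatic arrays differed from each other by 0.84. The difference was -2.53 (SE 0.29), a 5.76-fold lower signal (limma adjusted p = 0.185), and it ranged from -2.95 to -2.11 when each array was left out in turn. Cd200 encodes a surface protein that binds an inhibitory receptor on myeloid cells. Its signal (1448788_at) was 6.73 and 7.14 on the metastatic arrays and 8.78 and 8.85 on the non-metastatic arrays. The groups did not overlap, and the gap between them was several times the distance within either group. The difference was -1.88 (SE 0.16), a 3.68-fold lower signal. Ecscr, an endothelial surface protein that affects chemotaxis and apoptosis, had 7.02 and 7.35 on the metastatic arrays, against 8.74 and 8.01 on the non-metastatic arrays (1437451_at). The groups again did not overlap, and the non-metastatic arrays differed from each other by 0.73. Its difference was -1.18 (SE 0.26, limma adjusted p = 0.457).

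Differences of the other 6 surface genes were smaller. Podxl, a sialomucin related to Cd34, stood at -0.30 (SE 0.12) on its brighter probe set and at -0.08 (SE 0.12) on its other one. The sphingosine 1-phosphate receptor gene S1pr1 had -0.33 (SE 0.16), or -0.14 without non-metastatic replicate 1, and the lectin-like receptor gene Cd93 had -0.22 (SE 0.12). All 5 probe sets of Cd93 had negative differences, from -0.33 to -0.07. Robo4, a guidance receptor of vessels, had -0.08 (SE 0.12), smaller than its error. Cd34, a sialomucin of blood vessels and of stromal and progenitor cells, had 8.43 and 7.64 on the metastatic arrays and 8.21 and 8.15 on the non-metastatic arrays. The metastatic arrays lay on both sides of the non-metastatic ones. Its difference, -0.14 (SE 0.26), was smaller than its error and turned to 0.25 without metastatic replicate 2. Clec14a, a lectin-like receptor that binds the matrix protein Mmrn2, had 7.44 and 6.33 on the metastatic arrays, against 6.91 and 6.81 on the non-metastatic arrays. Here too the metastatic preparations enclosed the non-metastatic ones, and the difference of 0.02 (SE 0.35) became -0.53 without metastatic replicate 1 and 0.57 without metastatic replicate 2.

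Among genes of caveolae and transport, 5 of 6 were lower on both metastatic arrays (17.3% of all genes), with a median difference of -0.57. The remaining gene, Gpihbp1, was higher on both (17.2% of all genes). Aqp1, a water channel, had 9.24 and 8.63 on the metastatic arrays and 10.72 and 10.20 on the non-metastatic arrays (1416203_at). The groups were apart, with replicate 1 the higher one in each. The difference was -1.53 (SE 0.26), a 2.88-fold lower signal (limma adjusted p = 0.356). Ehd3, a protein of endosomal recycling, had 8.34 and 8.42 on the metastatic arrays, against 9.56 and 9.88 on the non-metastatic arrays (1417235_at). The groups were far apart relative to the distance within each. The difference was -1.34 (SE 0.14, limma adjusted p = 0.179), and the other probe set of Ehd3 gave -1.06 (SE 0.16). Cav2, a caveolin that assembles with Cav1 into the caveolar coat, had 10.21 and 10.21 on the metastatic arrays and 10.75 and 11.03 on the non-metastatic arrays (1417327_at). The groups did not overlap. Its difference was -0.68 (SE 0.13), while its other, dim probe set stood at -0.07 (SE 0.17), and the mean of both gave -0.38. Cav1, the main coat protein of caveolae, was bright everywhere, with 13.27 ± 0.04 on the metastatic and 13.68 ± 0.01 on the non-metastatic arrays (SD, n = 2 each), a difference of -0.41 (SE 0.11). Plvap, which builds the diaphragms of fenestrae and caveolae, had -0.46 (SE 0.23), and -0.12 without non-metastatic replicate 1. Gpihbp1, which carries lipoprotein lipase to the capillary lumen, had 6.34 ± 0.02 on the metastatic and 6.30 ± 0.03 on the non-metastatic arrays, a difference of 0.04 (SE 0.11).

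**Figure D2:**
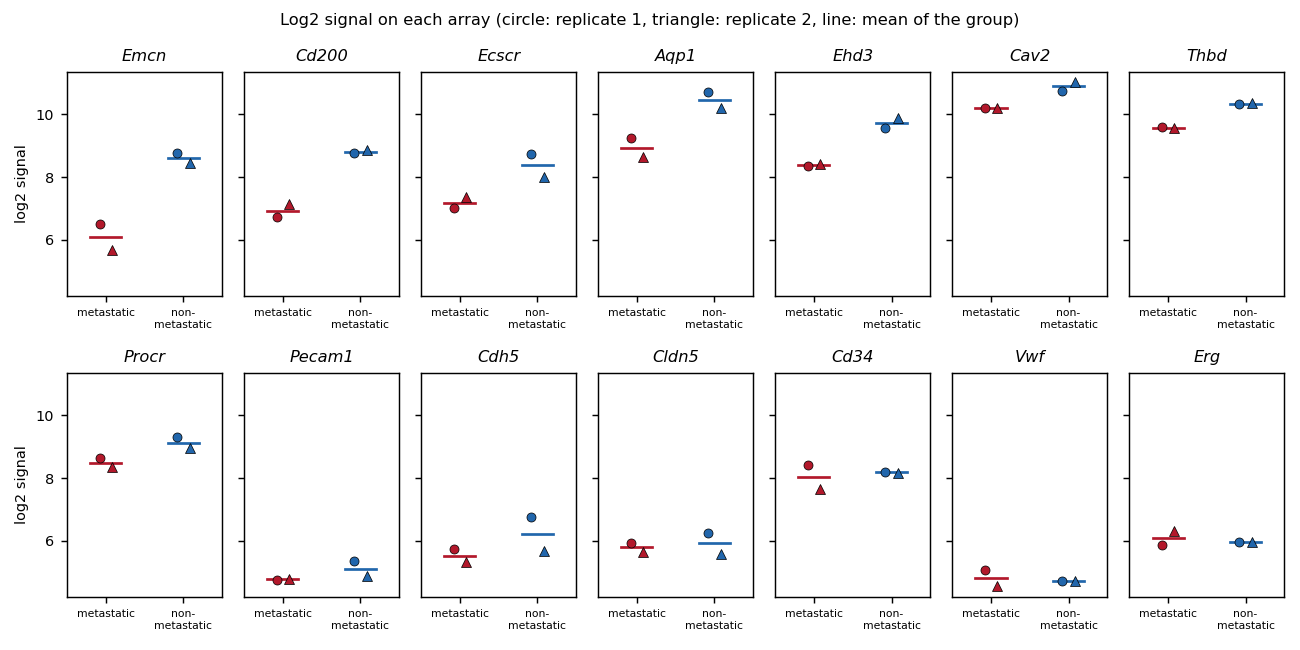
Log2 signal of 14 genes on each array, metastatic preparations left and non-metastatic ones right, with the mean of each group as a line. The first 8 genes, Emcn to Procr, have both metastatic points under both non-metastatic points; of the last 6, only Pecam1 does.

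For the 4 genes with the largest differences that have an entry, the promoter (250 bases before to 50 after the transcription start, RefSeq, GRCm38.p6) is shown because Emcn, Cd200, Ehd3 and Aqp1 were lower together and ETS factors are among the 37 genes. Capitals mark GGAAG, a form of the ETS core motif, or its reverse complement CTTCC, and shorter forms of the core are not marked.
Emcn, chr3:137340828-137341127, plus strand: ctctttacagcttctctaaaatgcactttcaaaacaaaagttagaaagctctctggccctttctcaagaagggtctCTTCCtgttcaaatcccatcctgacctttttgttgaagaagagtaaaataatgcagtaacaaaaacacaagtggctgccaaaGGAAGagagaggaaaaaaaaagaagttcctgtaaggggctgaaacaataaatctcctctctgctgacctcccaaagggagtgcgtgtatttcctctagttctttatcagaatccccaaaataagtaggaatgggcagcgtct
Cd200, chr16:45409004-45409303, minus strand: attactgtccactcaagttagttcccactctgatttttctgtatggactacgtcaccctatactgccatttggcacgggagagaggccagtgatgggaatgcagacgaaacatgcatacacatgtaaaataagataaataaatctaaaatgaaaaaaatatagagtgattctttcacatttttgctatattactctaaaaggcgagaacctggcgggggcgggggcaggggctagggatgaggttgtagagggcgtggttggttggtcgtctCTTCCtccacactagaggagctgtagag
Ehd3, chr17:73804591-73804890, plus strand: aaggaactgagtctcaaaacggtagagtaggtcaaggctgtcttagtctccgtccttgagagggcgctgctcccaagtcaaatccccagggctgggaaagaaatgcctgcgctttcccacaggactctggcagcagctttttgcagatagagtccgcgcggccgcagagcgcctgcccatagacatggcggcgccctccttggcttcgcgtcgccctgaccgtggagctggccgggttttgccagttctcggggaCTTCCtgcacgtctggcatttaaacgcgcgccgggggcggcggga
Aqp1, chr6:55336049-55336348, plus strand: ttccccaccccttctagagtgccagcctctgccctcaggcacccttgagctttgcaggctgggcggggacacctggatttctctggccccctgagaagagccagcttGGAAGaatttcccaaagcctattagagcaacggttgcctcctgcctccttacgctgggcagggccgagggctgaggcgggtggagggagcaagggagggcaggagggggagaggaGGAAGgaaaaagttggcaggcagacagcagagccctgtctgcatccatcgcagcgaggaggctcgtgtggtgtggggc
This form occurs 2 times in the Emcn and Aqp1 windows and 1 time in those of Cd200 and Ehd3. It is common: 71.4% of all 32851 promoters of this length hold it on either strand, and so do 17 of the 21 promoters found for the 37 genes. The longer form CAGGAAG, which contains GGAAG, occurs on either strand in Emcn and Ehd3 among these 4, in 8 of the 21 and in 13.3% of all promoters. The E-box CAGCTG, a motif that basic helix-loop-helix factors bind, occurs in none of these 4, in 4 of the 21 and in 16.3% of all. These matches describe letters in the windows and show no binding. Whether ETS factors had a part in the lower signals was not tested.

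Of the 4 genes of haemostasis and vascular tone, Thbd and Procr had the lower signals at an unadjusted p under 0.05, and the groups overlapped for Vwf. Thbd encodes thrombomodulin, which turns thrombin into an activator of protein C. Its signal (1448529_at) was 9.59 and 9.55 on the metastatic arrays, against 10.34 and 10.35 on the non-metastatic arrays. Replicates lay 0.04 or less apart in both groups, the tightest agreement among the genes with a large difference. The difference was -0.77 (SE 0.11, limma adjusted p = 0.25). Procr encodes the endothelial protein C receptor and had 8.63 and 8.34 on the metastatic arrays and 9.30 and 8.95 on the non-metastatic arrays (1420664_s_at). The groups were apart by about as much as the replicates were. The difference was -0.63 (SE 0.17, limma adjusted p = 0.606), and its probe set is marked by the array's naming as able to bind several transcripts. Nos3, the endothelial nitric oxide synthase, stood at -0.25 (SE 0.15), and at -0.10 without non-metastatic replicate 1. Vwf, which tethers platelets, had 5.06 and 4.55 on the metastatic arrays, against 4.73 and 4.71 on the non-metastatic arrays. The metastatic values enclosed the others, all of them dim. The difference was 0.09 (SE 0.19), and -0.17 without metastatic replicate 1.

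Junction genes, which include the markers most often used to define endothelium, were dim, and none of the 6 was lower or higher at an unadjusted p under 0.05. All 6 had means under the median of all probe sets. Pecam1, the adhesion molecule also called CD31, had 4.76 and 4.78 on the metastatic arrays, against 5.36 and 4.87 on the non-metastatic arrays. The second non-metastatic array lay close to the metastatic ones. The difference was -0.34 (SE 0.18), and -0.10 without non-metastatic replicate 1. Cdh5, the cadherin of endothelial adherens junctions, had 5.73 and 5.32 on the metastatic arrays and 6.76 and 5.68 on the non-metastatic arrays. The groups overlapped, and non-metastatic replicate 1 stood above the other 3 arrays. The difference of -0.70 (SE 0.36) became -0.16 without that array and -1.24 without non-metastatic replicate 2. Its other probe set had -0.20 (SE 0.12). Cldn5, the claudin of endothelial tight junctions, had 5.94 and 5.64 on the metastatic arrays, against 6.26 and 5.58 on the non-metastatic arrays. The groups overlapped fully. Its difference was -0.13 (SE 0.24), and 0.21 without non-metastatic replicate 1. The connexin genes Gja4 and Gja5 had -0.20 (SE 0.11) and 0.02 (SE 0.11), and the adhesion molecule gene Esam 0.02 (SE 0.12). For Esam and Gja5 these values are smaller than their errors.

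Of the 2 secreted and 5 intracellular signalling genes, none was past an unadjusted p of 0.05. The secreted angiogenic factor gene Egfl7 had 0.11 (SE 0.23), with positive values on all 4 of its probe sets, from 0.11 to 0.20, but -0.18 without non-metastatic replicate 2. The matrix protein gene Mmrn2, a ligand of Cd93 and Clec14a, had -0.11 (SE 0.12), or -0.0076 without non-metastatic replicate 1, with negative values on all 4 of its probe sets. Rhoj, a small GTPase of endothelial motility, was bright in both groups, with 12.16 ± 0.29 in the metastatic and 12.21 ± 0.22 in the non-metastatic group (SD, n = 2 each). Rasip1, needed for vessel lumen formation in mice, had -0.18 (SE 0.13), or -0.056 without metastatic replicate 1, the kinase gene Bmx -0.12 (SE 0.15), the exchange factor gene Arhgef15 -0.05 (SE 0.14) and Ushbp1 0.07 (SE 0.16). The 3 probe sets of Arhgef15 disagreed in direction, from -0.21 to 0.14.

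Of the 5 transcription factors, none was past an unadjusted p of 0.05. Both metastatic arrays lay below both non-metastatic arrays for 1 of them, Ets1 (17.3% of all genes). Erg, the ETS factor most closely tied to endothelial identity, had 5.88 and 6.33 on the metastatic arrays, against 5.96 and 5.95 on the non-metastatic arrays. The metastatic values enclosed the non-metastatic ones. Its difference was 0.15 (SE 0.17), and its other probe set, not marked as shared between transcripts, gave -0.22 (SE 0.16), so no direction can be given. Fli1 had -0.22 (SE 0.15), or -0.058 without metastatic replicate 2, with the second probe set at -0.21 (SE 0.20). Ets1, which is also expressed in lymphocytes and stroma, had -0.29 (SE 0.14), or -0.13 without metastatic replicate 1, and its 4 probe sets ran from -0.37 to -0.13. The basic helix-loop-helix genes Tal1 and Lyl1, known from blood-forming and endothelial cells, had -0.16 (SE 0.13) and 0.26 (SE 0.17). For Lyl1 the groups overlapped, and the value was 0.089 without metastatic replicate 2.

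Preparations of the same group also differed from each other in many of these genes. Non-metastatic replicate 1 exceeded replicate 2 by more than 0.5 for 6 of the 37 genes (1.87% of all genes), and the reverse held for 0 (1.45% of all genes). These 6 were Cdh5 at 1.08, Ecscr at 0.73, Cldn5 at 0.68, Plvap at 0.67, Egfl7 at 0.59 and Aqp1 at 0.52, and Pecam1 followed at 0.49. They include junction, diaphragm and secreted endothelial genes. Between the metastatic arrays, replicate 1 exceeded replicate 2 by more than 0.5 for 5 genes (5.60% of all genes), and the reverse held for 0 (3.94%). These were Clec14a at 1.11, Emcn at 0.84, Cd34 at 0.79, Aqp1 at 0.60 and Vwf at 0.52. Aqp1 alone is in both sets. Thbd, Cav1, Gja4 and Gpihbp1 varied by 0.06 or less between replicates of either group. With 1 array for each preparation, differences between preparations and between hybridizations cannot be told apart.

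**Figure D3:**
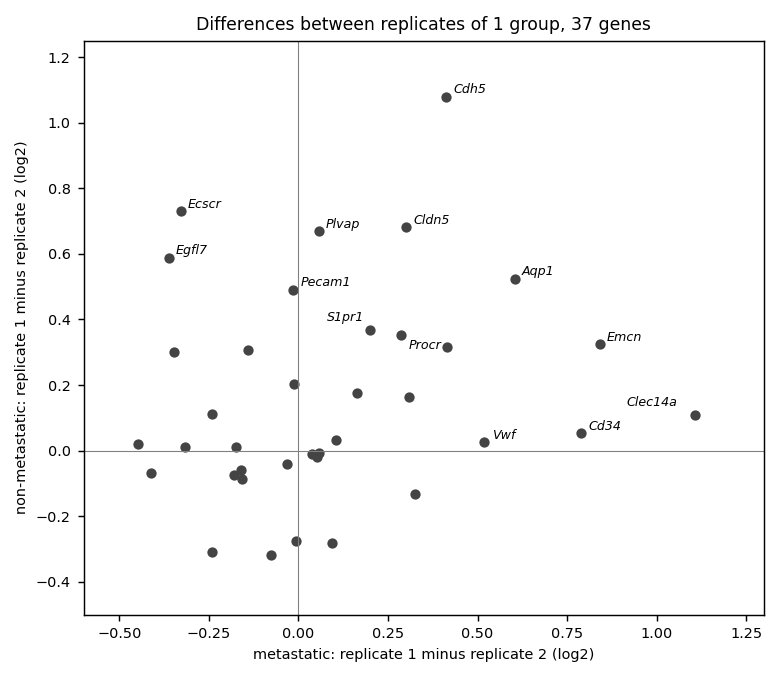
Replicate 1 minus replicate 2 in log2 units for the 37 genes, in the metastatic group on the horizontal axis and the non-metastatic group on the vertical axis. Cdh5 lies highest at 1.08 and Clec14a farthest right at 1.11, and no gene lies under -0.5 on either axis.

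A further list of 22 endothelial genes, none of them among the 37, was read beside them, and 21 of its genes were measured. It too was chosen with earlier results of these data known, so it is no independent check. Of these, 16 had negative and 5 positive differences (50.1% of all genes were negative), with a median of -0.16. At an unadjusted p under 0.05, 5 were lower (4.07% of all genes) and 0 higher (2.63%), and limma called none after adjustment. Both metastatic arrays lay below both non-metastatic arrays for 6 of the 21 (17.3% of all genes). They lay above them for 3, Kdr, Sox17 and Cyyr1 (17.2%). The receptor genes Kdr, Flt1, Tek and Tie1 had 0.12 (SE 0.11), -0.17 (SE 0.17), 0.02 (SE 0.28) and -0.07 (SE 0.19). Selp, the P-selectin of venules, had -0.87 (SE 0.18), the largest size in this list. Its mean over the arrays, 5.86, was under the median of all probe sets, 5.95. Icam2 of endothelial junctions had -0.62 (SE 0.15) and was dim on all arrays, from 4.37 to 5.22. Calcrl, the receptor for adrenomedullin, had -0.59 (SE 0.11). The phosphatase gene Ptprb had -0.52 (SE 0.14) and the TGF-beta coreceptor gene Eng had -0.49 (SE 0.17). Sox17, an arterial transcription factor, had the most positive value, 0.19 (SE 0.15).

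Markers of other cell types were read on the same arrays, since the selected fraction is mixed. Sums of linear signal over a marker list weigh its brightest probe sets most and are not amounts of RNA. Mural and smooth muscle markers also had mostly negative differences. In that list 7 of 8 genes had negative differences (50.1% of all genes), with a median of -0.46. At an unadjusted p under 0.05 in limma, 4 of the 8 were lower (4.07% of all genes). Their summed linear signal was 17759 and 28734 on the metastatic arrays, against 35633 and 33638 on the non-metastatic arrays. Acta2 and Tagln made up 96.3% to 97.6% of each sum; without both of them the sums were 654 and 785 on the metastatic arrays, against 864 and 1128 on the non-metastatic arrays. The metastatic sums were the lower ones either way. The 3 markers with the smallest p were Myh11 at -0.61 (SE 0.11), Notch3 at -0.39 (SE 0.11) and Cnn1 at -1.06 (SE 0.33). Myh11 was dim, at 4.93 and 4.85 on the metastatic arrays, against 5.46 and 5.55 on the non-metastatic arrays. Of 7 lymphatic markers measured, 5 had negative and 2 positive differences, and the summed signal was 2373 and 2414 on the metastatic arrays and 2226 and 2187 on the non-metastatic arrays. Most of that sum was Pdpn, and without it the order turned, to 475 and 588 on the metastatic arrays, against 925 and 883 on the non-metastatic arrays. Foxc2 and Lyve1 made up most of what remained on the non-metastatic arrays, so the turned order rests on these genes and not on the list as a whole. Lyve1 stood at -2.76 (SE 0.64), Foxc2 at -0.61 (SE 0.29) and Pdpn, the gene of the selected protein, at 0.51 (SE 0.11). Reln had 0.24 (SE 0.17), while Prox1 was dim on all arrays, from 3.74 to 4.17.

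Fibroblast markers, 8 measured, had a median of 0.01, with 4 negative and 4 positive differences. Their sums were 54223 and 51524 on the metastatic arrays against 48083 and 50262 on the non-metastatic arrays. Postn, at 0.84 (SE 0.15), had 13.61 and 13.26 on the metastatic arrays, against 12.64 and 12.54 on the non-metastatic arrays. Being that bright, it weighs on these sums, and sums without it were not computed. Of 8 leukocyte markers, 5 were negative, with a median of -0.04, and the sums were 1259 and 1076 on the metastatic arrays against 1469 and 1571 on the non-metastatic arrays. Without Csf1r, which made up 57.1% to 68.4% of each, they were 479 and 461 on the metastatic arrays, against 526 and 497 on the non-metastatic arrays. The pan-leukocyte gene Ptprc was dim in both groups, at 4.28 and 4.02 on the metastatic and 4.13 and 4.08 on the non-metastatic arrays. Csf1r of macrophages had -0.54 (SE 0.16). The myeloid gene Itgam, also dim, went the other way, at 0.28 (SE 0.14), with both metastatic arrays above both non-metastatic arrays. Adgre1 of macrophages had -0.06 (SE 0.17), smaller than its error. The 4 platelet markers had a median of 0.01 and sums of 541 and 583 on the metastatic arrays against 576 and 557 on the non-metastatic arrays. The lowest deposited log2 values of the arrays were 3.10 to 3.19, so no marker could stand at 0. Whether a cell type was present cannot be read from that. The part of these cell types in the differences of the 37 genes was not tested.

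**Figure D4:**
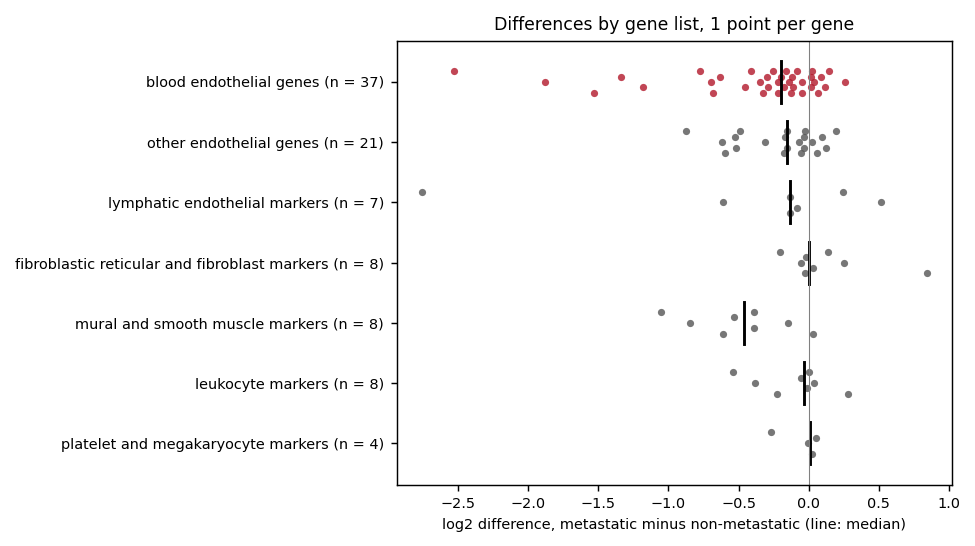
Log2 difference, metastatic minus non-metastatic, for each gene of the blood endothelial genes and of 6 further lists, with the median of each list as a line. The medians are -0.20 for the 37 genes, -0.46 for the mural markers and 0.01 for the fibroblast markers.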

How the data were processed

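Gene expression was measured on 4 Affymetrix arrays, 1 per preparation. Per the labels' protocols, 3 ug of RNA gave biotin-labelled cRNA, of which 20 ug was hybridized after fragmenting. The authors deposited log2 signals of probe sets, a scale read from their range; how probes were summarised, or arrays normalized, is not given in the sources used here. As the deposited medians differed by 0.116, above a limit of 0.1, the arrays were quantile normalized. Of 45101 probe sets, 64 controls were left out. In GEO's platform annotation 34945 probe sets had 1 symbol, 932 several and 9160 none, and 34741 of the first were matched to a current gene by Entrez number.

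Differences were fitted with limma 3.58.1 (lmFit, eBayes) in R 4.3.3, with 2 residual and 3.71 prior degrees of freedom, and p-values were adjusted over the 45037 probe sets (Benjamini-Hochberg). The fit was tested on simulated data. The 37 genes and the other lists were chosen with earlier results of these data known. Values on every array are given for genes with a difference of at least 0.5 whose groups do not overlap, and for Pecam1, Cdh5, Vwf, Cldn5, Erg and Cd34. Clec14a was added after its values were seen. Among other endothelial genes, those at an unadjusted p under 0.05 and the largest difference either way are named. Kdr, Flt1, Tek, Tie1 and Cyyr1 were added after their values were seen. Of each marker list, up to 3 with the smallest p are named, plus Prox1, Ptprc, Reln and Adgre1. Tspan7, Ccl21a, Ccl19 and Gp1ba were not analysed here. Promoters were found for 21 of the 37 genes. Alternatives were the deposited values, median centring, brighter probe sets, other representative probe sets, trended robust moderation, a replicate block and each array left out.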

Additional observations from a re-analysis of the deposited data

How the results depend on the processing

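Across the alternative fits on all arrays, 0 to 145 probe sets were called after limma's adjustment (0 with the settings used above, where 2731 had an unadjusted p under 0.05). Calls numbered 5 with an intensity trend and robust moderation, 145 with the replicate block (0.322% of probe sets) and 0 to 67 with 1 array left out, the 67 (0.149%) without metastatic replicate 1. Of the 37 genes, 4 were called with the replicate block (Emcn, Cd200, Aqp1 and Ehd3, limma adjusted p = 0.0063 to 0.0178). The labels state no pairing: same-numbered arrays deviated together with a correlation of 0.25 over probe sets, and with 2 numbers the block is a hint from the data only. The count of the 37 genes lower at an unadjusted p under 0.05 in limma was 9 to 13 in the alternative fits on all arrays, against 10. In those fits 3.52% to 5.77% of all genes were lower, and the 13 and the 5.77% both came from the replicate block. The count higher was 0 in each of them, against 2.14% to 3.79% of all genes. Counts of calls or of genes past an unadjusted p are not given for fits with 1 array left out, where 1 group has a lone array. The median of -0.20 was -0.31 among the 22 genes kept with brighter probe sets only and -0.25 to -0.12 with 1 array left out, the -0.12 without non-metastatic replicate 1.

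Signs turned for Esam (-0.015) and Gja5 (-0.0011) with the deposited values, Clec14a (-0.090) and Erg (-0.038) when a gene's probe sets were averaged, and Erg (-0.22) with probe sets not marked as shared. With 1 array left out, ranges that cross 0 were -0.072 to 0.10 for Esam, -0.47 to 0.21 for Cldn5, -0.033 to 0.071 for Gja5, -0.54 to 0.25 for Cd34, -0.53 to 0.57 for Clec14a, -0.17 to 0.35 for Vwf, -0.18 to 0.41 for Egfl7, -0.25 to 0.16 for Rhoj, -0.19 to 0.092 for Arhgef15, -0.27 to 0.035 for Bmx, -0.084 to 0.22 for Ushbp1 and -0.078 to 0.37 for Erg. The other 25 genes kept their sign in every fit that held them, and 9 of the 25 were not in the fit on brighter probe sets. Among those 25, values moved by over 1.5 times with 1 array left out for Pecam1 (-0.59 to -0.10), Cdh5 (-1.24 to -0.16), Cd93 (-0.30 to -0.14), Robo4 (-0.16 to -0.0009), S1pr1 (-0.51 to -0.14), Plvap (-0.79 to -0.12), Gpihbp1 (0.017 to 0.059), Nos3 (-0.41 to -0.10), Mmrn2 (-0.21 to -0.0076), Rasip1 (-0.30 to -0.056), Fli1 (-0.38 to -0.058), Ets1 (-0.45 to -0.13), Tal1 (-0.25 to -0.072) and Lyl1 (0.089 to 0.44). With 1 array left out, 1 residual degree of freedom remains, and the lone array is taken to vary as the other group does. The cause of these changes was not tested beyond the loss of an array.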
